A study of Mus musculus with 6 samples.

Results

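The genes of the unfolded protein response (UPR) and of protein folding in the endoplasmic reticulum (ER) were compared between glomerular endothelial cells (GEC) of db/db and normal mice. A list of 53 genes, chosen by pathway when earlier results of these data were known, was taken by symbol, and each gene was read by its array probeset with the highest mean, provided that the signal reached 100 on the linear scale in at least 3 arrays. Of the 53 genes 52 were measured, out of 12763 genes past that level. Mbtps2, which encodes the site-2 protease, had no probeset of its own, since the annotation lists several genes for the probeset that reads it. The 52 measured genes comprised 4 sensors, 14 genes of the PERK/ATF4 arm, 7 of the IRE1/XBP1 arm, 2 of ATF6 processing, 14 chaperones and foldases and 11 genes of ER-associated degradation (ERAD).

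Proteins that enter the ER are folded there by chaperones such as BiP (Hspa5), are joined by disulfide bonds and carry N-glycans that report their folding state. When unfolded protein accumulates, the membrane sensors IRE1 (Ern1), PERK (Eif2ak3) and ATF6 signal to the nucleus. IRE1 splices Xbp1 mRNA, PERK phosphorylates eIF2-alpha, which slows translation in general and favours that of ATF4, and ATF6 moves to the Golgi, where proteases release its transcription factor part. XBP1 and ATF6 drive chaperone and ERAD genes, whereas ATF4 drives genes of amino acid supply, CHOP (Ddit3) and feedback phosphatases. In endothelium the ER makes receptors, adhesion molecules and basement membrane proteins. The arrays read transcript levels alone, and a probeset signal does not separate spliced from unspliced Xbp1, nor does it show phosphorylation or cleavage.

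The db/db mice (genotype label Tie2-GFP/ DB/DB) carry a mutated leptin receptor and are obese and diabetic, and the normal mice carried the label Tie2-GFP/ +/+. Both groups bore the Tie2-GFP transgene, in which the Tie2 promoter drives green fluorescent protein in endothelium and, as is known, in some blood-forming cells, and cells sorted for GFP from isolated glomeruli of 7 month old mice gave the RNA. There were 3 db/db and 3 normal samples with 1 whole-transcript Affymetrix mouse array each. The labels call the replicates biological and give neither strain nor sex, nor whether a sample was 1 animal or a pool. The 6 arrays had median signals of 7.00 to 7.04 (log2), and the first principal component, with 30.5% of the variance, set normal replicate 2 apart from the rest. Endothelial markers were past the level for 8 of 8 genes, with array means of 12.54 to 12.57 in db/db and 12.57 to 12.58 in normal GEC. They were chosen as pan-endothelial, except that Ehd3 is described by the study as specific to GEC within the kidney. The groups did not overlap for 6 of these 8 markers (75.0%, against 13.3% of all genes), 3 higher and 3 lower in db/db GEC, among them Tek at -0.33 ± 0.12 and Cdh5 at 0.21 ± 0.08 (SE, adjusted p of 0.754 each). Changes are log2, db/db minus normal, and are relative to the rest of the array, since the arrays had been normalised to each other. In sorted bulk RNA, fewer cells of a type and less RNA per cell cannot be told apart.

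Promoters of some of these genes hold sites through which the pathway is known to act. ATF6 and XBP1 bind the ER stress element, CCAAT and CCACG with 9 bases between them, and ATF4 with a C/EBP partner binds composites of the form TGATGNAA. RefSeq promoter windows (GRCm38.p6, 250 bases before to 50 after the annotated start, both strands searched) were found for 48 of the 53 genes. The ER stress element stood in 10 of these 48 genes (20.8%), against 0.119% of 32851 windows of that length (0.137% of genes). These were Hspa5, Hsp90b1, Calr, Canx, Creld2, Pdia6, Ero1b, Dnajc3, Derl3 and Syvn1, so 7 chaperones and foldases, 1 IRE1/XBP1 gene and 2 ERAD genes. The stretches below are those of some of these genes, read 5′ to 3′ on the strand of the gene. CCAAT and CCACG, or their complements ATTGG and CGTGG, are in capitals.
Hspa5, chr2:34772005-34772063, plus strand: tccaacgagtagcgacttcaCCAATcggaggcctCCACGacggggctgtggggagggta
Hsp90b1, chr10:86705513-86705676, minus strand: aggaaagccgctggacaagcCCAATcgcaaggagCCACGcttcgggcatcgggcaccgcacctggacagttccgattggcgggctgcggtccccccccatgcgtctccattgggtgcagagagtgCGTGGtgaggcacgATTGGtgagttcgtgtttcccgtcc
Canx, chr11:50325780-50325838, minus strand: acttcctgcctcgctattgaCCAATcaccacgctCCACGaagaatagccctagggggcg
Creld2, chr15:88819500-88819558, plus strand: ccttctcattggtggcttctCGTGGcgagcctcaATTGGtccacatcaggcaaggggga
Pdia6, chr12:17266471-17266529, plus strand: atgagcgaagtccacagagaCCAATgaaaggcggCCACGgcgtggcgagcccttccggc
Dnajc3, chr14:118937807-118937865, plus strand: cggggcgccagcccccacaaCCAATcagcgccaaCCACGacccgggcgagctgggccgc
Syvn1, chr19:6046512-6046570, plus strand: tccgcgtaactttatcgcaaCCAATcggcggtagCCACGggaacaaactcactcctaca
Hsp90b1 held 2 elements, in opposite orientations. A single CCACG, which is part of the ER stress element, was present in 38 of 48 genes (79.2%), against 32.8% of all windows (35.5% of genes), and TGACGTGG, the core bound by XBP1, whose complement contains CCACG, was present in 0 of 48, against 0.676% of windows (0.714% of genes).

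The composite TGATGNAA was found in 5 of 48 genes (10.4%), against 3.97% of windows (4.51% of genes). These were Asns, Chac1, Herpud1, Nupr1 and Trib3, in the last of which the match lay after the start. Stretches of 3 genes of the PERK/ATF4 arm are shown with the composite, or its complement, in capitals, together with that of Pdia5, the gene with the smallest p among those compared, whose CCACG (as CGTGG) is in capitals.
Asns, chr6:7693210-7693252, minus strand: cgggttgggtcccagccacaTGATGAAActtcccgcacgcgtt
Nupr1, chr7:126625553-126625600, minus strand: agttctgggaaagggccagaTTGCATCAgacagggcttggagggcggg
Chac1, chr2:119351029-119351076, plus strand: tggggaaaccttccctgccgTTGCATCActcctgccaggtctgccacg
Pdia5, chr16:35490874-35490900, minus strand: ggtgcgcatgctttggcagaCGTGGca
A match is a description of these letters and not evidence of binding in GEC.

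**Figure D1:**
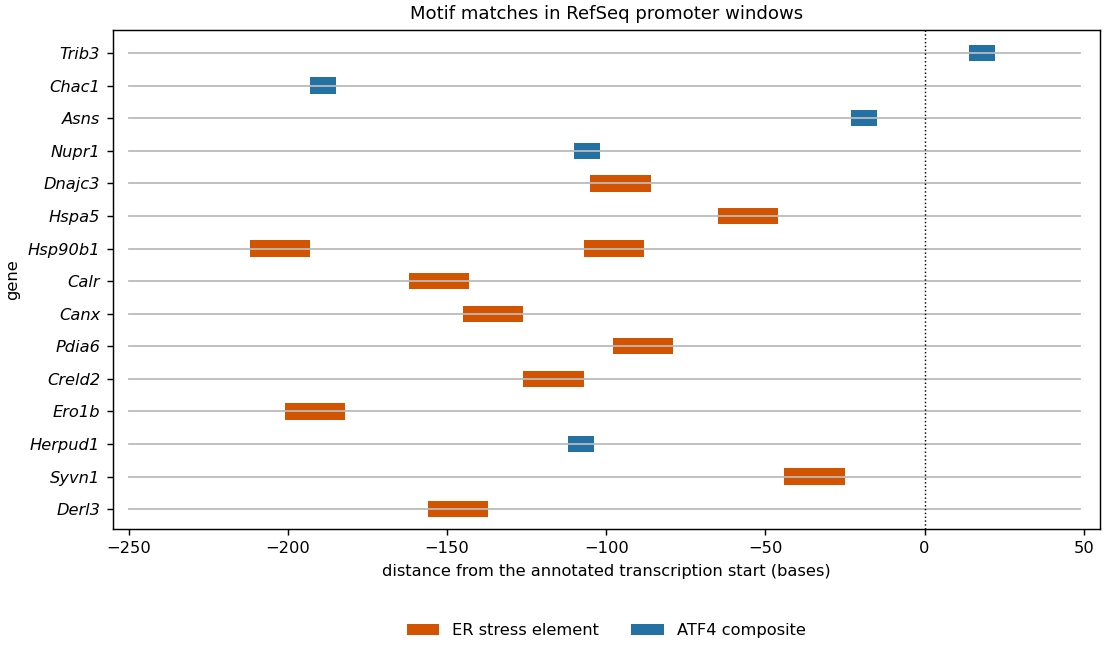
Position of ER stress elements (orange) and ATF4 composites (blue) in the promoter windows of the genes that hold one, in bases from the annotated start (dotted line). The 10 genes with an ER stress element carry it upstream of the start, and Trib3 has its composite after the start.

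The transcripts of the UPR and of ER folding lay close together in db/db and normal GEC. Of 52 measured genes 0 passed limma's test with Benjamini-Hochberg adjustment over all 20661 probesets, against 0.0% of all probesets and of all genes, and the smallest adjusted p among them was 0.404, for Pdia5. The median change was 0.01 over the 52 genes and 0.01 over all genes, and the median size of change was 0.10 against 0.11. Means were higher in db/db for 27 genes and lower for 25, against a share of 53.7% higher over all genes. The 95% interval of the change lay within 1.5-fold either way for 41 of 52 genes (78.8%), against 66.4% of all genes, so for most of these genes a larger change was outside the interval.

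Without adjustment, 7 of 52 genes had a limma p under 0.05 (13.5%), against 6.57% of all genes, and 0 of them passed after adjustment. Those higher in db/db were Pdia5, Sesn2, Derl1 and Ddit4 (3.49% of all genes were so), and those lower in db/db were Ern1, Vimp and Mbtps1 (3.07% of all genes). The methods' t-test on the same values gave 5 of 52 at the same threshold, against 6.20% of all probesets, and 0 after adjustment. The db/db arrays did not overlap the normal arrays for 6 of 52 genes (11.5%), against 13.3% of all genes. They lay above for Pdia5, Sesn2, Derl1 and Ddit4 (7.39% of all genes) and below for Ern1 and Sdf2l1 (5.92% of all genes). Sesn2 reached the level in the db/db arrays and in none of the normal arrays, so that it had to differ to be measured. Among the 51 genes at the level in all 6 arrays 6 had an unadjusted p under 0.05 (11.8%) and 5 did not overlap (9.80%). The count of 7, against 6.39% of all probesets, moved when an array was left out. It was 4 without db/db replicate 1 (5.33% of all probesets) and 3 without db/db replicate 2 (5.99%). It was 4 without db/db replicate 3 (5.09%) and 11 without normal replicate 3 (7.17%). Sesn2 was not tested without a db/db array, since it then missed the level. Pdia5, Derl1 and Ddit4 were among the counted genes in each of the 18 alternative settings, whereas Ern1 was in 11 of 17, Vimp in 11 of 18 and Mbtps1 in 11 of 18.

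**Figure D2:**
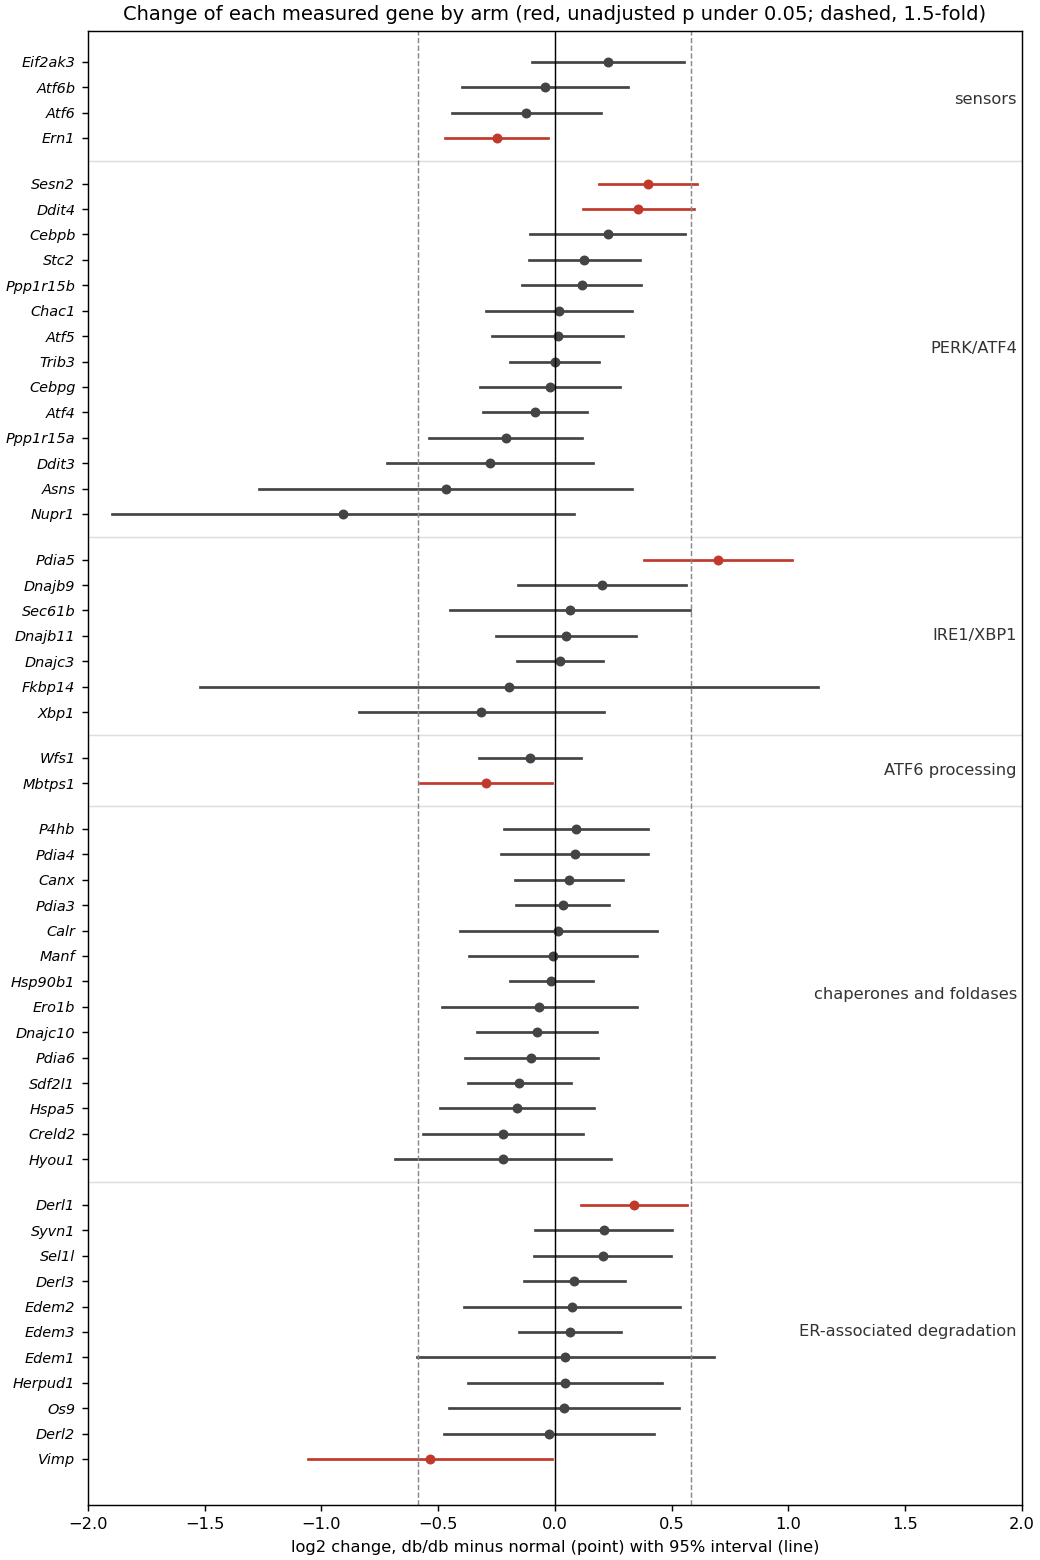
Log2 change (db/db minus normal, point) and 95% moderated interval (line) of the 52 measured genes by arm, with 1.5-fold either way dashed and genes of unadjusted p under 0.05 in red. Pdia5 lies farthest to the right at 0.70 and Nupr1 farthest to the left at -0.91, and the intervals of 41 genes end inside the dashed lines.

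Among the 4 sensors the median change was -0.08, and all 4 intervals lay inside 1.5-fold, against 66.4% of all genes. Ern1, the IRE1 kinase and nuclease, read 7.39, 7.34 and 7.44 (log2) in db/db GEC, against 7.58, 7.76 and 7.58 in normal GEC. The db/db arrays were all below the normal arrays, by a change of -0.25 ± 0.09 (SE) with an adjusted p of 0.754. Eif2ak3, which encodes PERK, read 8.49, 8.43 and 8.77 in db/db GEC, against 8.20, 8.48 and 8.32 in normal GEC. The groups overlapped, with db/db replicate 3 the highest of the 6 arrays and a change of 0.23 ± 0.13 (adjusted p = 0.84). Atf6 read 10.77, 10.79 and 10.49 in db/db GEC, against 10.98, 10.75 and 10.70 in normal GEC. It overlapped as well, at -0.12 ± 0.13 (adjusted p = 0.907), and its relative Atf6b differed by -0.04 ± 0.14. After adjustment 0 of the 4 sensors differed beyond the spread between arrays.

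In the PERK/ATF4 arm the 14 genes had a median change of 0.01, with 7 means higher and 7 lower. Atf4, the factor whose translation PERK favours, read 9.65, 9.71 and 9.49 in db/db GEC, against 9.68, 9.68 and 9.75 in normal GEC. The groups overlapped and differed by -0.09 ± 0.09, with an interval of -0.31 to 0.14. Ddit3, which encodes CHOP, a factor of the death-prone phase of the response, read 9.57, 9.62 and 9.77 in db/db GEC, against 9.89, 10.27 and 9.63 in normal GEC. Normal replicates 1 and 2 lay above the db/db arrays and normal replicate 3 lay among them, and the change was -0.28 ± 0.18 (adjusted p = 0.847). Nupr1, a small stress-induced nuclear protein and ATF4 target, read 8.93, 9.83 and 9.60 in db/db GEC, against 10.34, 11.03 and 9.71 in normal GEC. Its change of -0.91 ± 0.40 was the widest of the 52 genes, but the arrays overlapped and the interval ran from -1.90 to 0.08 (adjusted p = 0.788). Asns, which makes asparagine, read 8.22, 8.18 and 8.60 in db/db GEC, against 9.51, 8.41 and 8.48 in normal GEC. Its change of -0.47 ± 0.32 came with 1 high array, normal replicate 1, and overlapping groups (adjusted p = 0.865).

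Ddit4, also called REDD1, an inhibitor of the growth kinase mTORC1, read 8.01, 7.83 and 7.99 in db/db GEC, against 7.69, 7.58 and 7.49 in normal GEC. The db/db arrays were all above the normal arrays, a 1.28-fold difference with an interval of 1.09 to 1.51 (adjusted p = 0.626). Sesn2, a leucine sensor, read 7.04, 6.88 and 7.01 in db/db GEC, against 6.60, 6.62 and 6.52 in normal GEC. All normal values lay below the level of 6.64 that 100 corresponds to, so that a higher reading in db/db was a condition of its being measured and no fold is given (adjusted p = 0.513). Sesn2 lies on chromosome 4, as does Lepr, the gene mutated in db/db mice, with 382 protein-coding genes between them, and so does Sec61b, with 258 between. Cebpg, a dimer partner of ATF4, read 10.87, 11.21 and 10.96 in db/db GEC, against 10.96, 11.00 and 11.15 in normal GEC, and its arrays overlapped at -0.02 ± 0.12.

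The other 7 genes of the arm differed by -0.21 to 0.23, and their groups overlapped. They included the phosphatase subunits that restore translation, Ppp1r15a at -0.21 ± 0.13 and Ppp1r15b at 0.11 ± 0.10. A second probeset of Ppp1r15b gave -0.14, so that the probesets of this gene disagreed in direction. The ATF4 targets Trib3, a pseudokinase, and Chac1, which degrades glutathione, differed by 0.00 ± 0.08 and 0.02 ± 0.13. The factors Atf5 and Cebpb differed by 0.01 ± 0.11 and 0.23 ± 0.13, and the secreted protein Stc2 by 0.13 ± 0.10. The 5 genes with an ATF4 composite had a median change of 0.00, and 0 of them had an unadjusted p under 0.05, against 6.57% of all genes.

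Of the 7 genes of the IRE1/XBP1 arm Pdia5 stood out, and the median change was 0.05. Pdia5, a protein disulfide isomerase, read 11.17, 10.93 and 11.01 in db/db GEC, against 10.33, 10.53 and 10.16 in normal GEC. The db/db arrays were all above the normal arrays, the mean was 11.04 ± 0.12 in db/db and 10.34 ± 0.18 in normal GEC (SD, n = 3 each), and the fold was 1.62 with an interval of 1.3 to 2.02. Its limma p of 0.00178 became 0.404 after adjustment over all probesets, and ranged from 0.272 to 0.862 over the alternatives. Xbp1 itself read 8.55, 7.92 and 8.51 in db/db GEC, against 8.88, 8.45 and 8.60 in normal GEC. The groups overlapped, with db/db replicate 2 the lowest array, and the change was -0.31 ± 0.21 (interval -0.84 to 0.21).

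The known XBP1 targets that serve BiP as J-domain partners differed little. Dnajb11 (ERdj3) read 11.21, 11.31 and 11.20 in db/db GEC, against 11.09, 11.42 and 11.07 in normal GEC, with overlap and a change of 0.05 ± 0.12. Dnajc3 (p58IPK), which also inhibits PERK, read 12.20, 12.24 and 12.29 in db/db GEC, against 12.24, 12.19 and 12.23 in normal GEC. The 6 values lay close together, for an interval of -0.16 to 0.21 about 0.02. Dnajb9 (ERdj4) differed by 0.20 ± 0.15 and the translocon subunit Sec61b by 0.06 ± 0.21, with overlap in both. Fkbp14, a prolyl isomerase, spread widely within both groups, and its change of -0.20 had an SE of 0.54. The median of this arm rested in part on normal replicate 2, without which it was 0.16. In ATF6 processing, Mbtps1, the site-1 protease that cleaves ATF6, read 8.53, 8.49 and 8.72 in db/db GEC, against 8.92, 8.72 and 8.99 in normal GEC. The highest db/db array met the lowest normal array, and the change was -0.30 ± 0.11 (adjusted p = 0.764). Wfs1, an ER membrane protein that limits ATF6 signalling, read 7.42, 7.35 and 7.21 in db/db GEC, against 7.43, 7.39 and 7.48 in normal GEC, and differed by -0.11 ± 0.09 with overlap.

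Among the 14 chaperones and foldases 0 had an unadjusted p under 0.05, against 6.57% of all genes. Of their intervals 13 lay inside 1.5-fold (92.9%, against 66.4% of all genes). Pdia5 and Fkbp14, a disulfide isomerase and a prolyl isomerase, were counted in the IRE1/XBP1 arm and not here. Means were lower in db/db for 9 and higher for 5, against 53.7% higher over all genes, with a median change of -0.04. Hspa5, which encodes the master chaperone BiP, read 11.61, 11.69 and 11.79 in db/db GEC, against 12.05, 11.90 and 11.62 in normal GEC. Normal replicates 1 and 2 lay above the db/db arrays and normal replicate 3 lay among them. The fold was 0.893 with an interval of 0.711 to 1.12 (adjusted p = 0.881). Hsp90b1, the ER member of the HSP90 family, read 13.41, 13.39 and 13.41 in db/db GEC, against 13.45, 13.42 and 13.38 in normal GEC. The groups overlapped, and the change was -0.01 ± 0.07 with an interval of -0.19 to 0.16. Canx, the lectin chaperone calnexin, read 12.63, 12.43 and 12.55 in db/db GEC, against 12.55, 12.39 and 12.48 in normal GEC, and overlapped at 0.06 ± 0.09.

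Hyou1, a BiP nucleotide exchange factor, read 8.65, 8.78 and 8.78 in db/db GEC, against 9.21, 9.11 and 8.56 in normal GEC. Creld2, a secreted UPR target with isomerase activity, read 9.24, 9.21 and 9.18 in db/db GEC, against 9.54, 9.61 and 9.15 in normal GEC. Both differed by -0.22, with SE of 0.19 and 0.14, and in both the db/db arrays lay between normal replicate 3 and the other normal arrays. Sdf2l1, a partner of BiP and ERdj3, was the 1 chaperone whose groups did not overlap, at 8.60, 8.63 and 8.58 in db/db GEC, against 8.88, 8.70 and 8.67 in normal GEC. Its change was -0.15 ± 0.09 (adjusted p = 0.843), and it is named after its values were seen. The disulfide isomerases P4hb, Pdia3, Pdia4 and Pdia6 differed by 0.09 ± 0.12, 0.03 ± 0.08, 0.09 ± 0.13 and -0.10 ± 0.12, and calreticulin (Calr) by 0.02 ± 0.17. The remaining 3 genes, the reductase Dnajc10, the secreted factor Manf and the oxidase Ero1b, differed by -0.08 to -0.01. The 10 genes with an ER stress element ranged from -0.22 to 0.21, with a median of 0.00. The intervals of 10 of 10 lay inside 1.5-fold, against 66.4% of all genes.

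**Figure D3:**
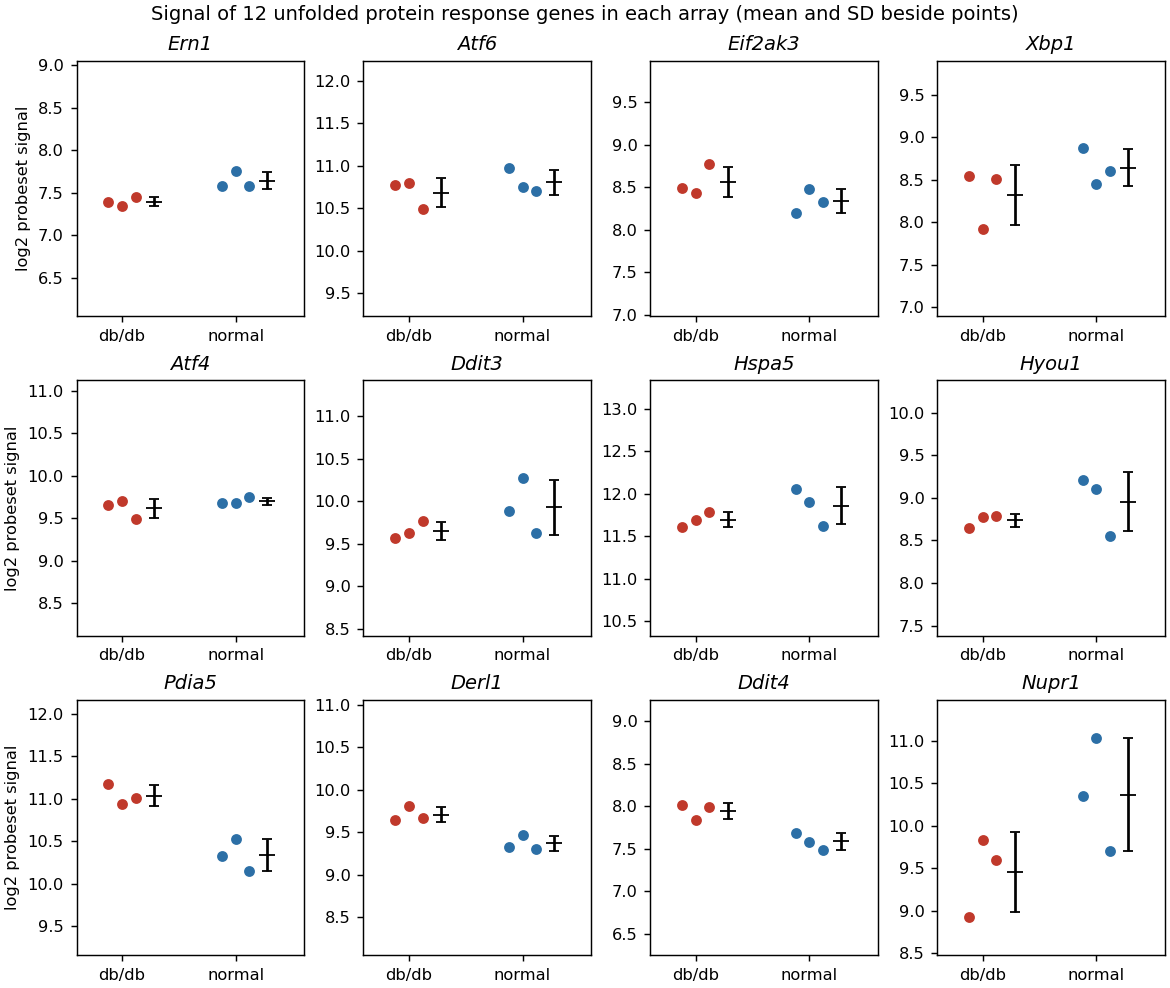
Signal (log2) of 12 UPR genes, 1 point per array, for db/db (left) and normal (right) GEC, each group with its mean and SD; the panels have their own ranges of equal height. The db/db points lie above the normal points for Pdia5, Derl1 and Ddit4 and below them for Ern1, and the groups overlapped for Hspa5, Hyou1, Xbp1, Atf4, Ddit3, Atf6, Eif2ak3 and Nupr1.

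ERAD is the route by which misfolded proteins leave the ER for the proteasome. Means were higher in db/db GEC for 9 of its 11 genes, against 53.7% of all genes, with a median change of 0.07. Derl1, a channel protein of this route, read 9.65, 9.81 and 9.67 in db/db GEC, against 9.33, 9.47 and 9.31 in normal GEC. The db/db arrays were all above the normal arrays, a 1.26-fold difference with an interval of 1.08 to 1.48 (adjusted p = 0.626). Vimp (now Selenos), the selenoprotein that ties Derl1 to the p97 ATPase, read 8.54, 8.19 and 7.92 in db/db GEC, against 8.97, 8.84 and 8.44 in normal GEC. It ran the other way at -0.53 ± 0.21, with db/db replicate 1 above normal replicate 3 (adjusted p = 0.774). Sel1l, the scaffold of the HRD1 ligase, read 10.46, 10.68 and 10.63 in db/db GEC, against 10.44, 10.20 and 10.52 in normal GEC, with overlap at 0.20 ± 0.12. Syvn1, the HRD1 ligase itself, differed by 0.21 ± 0.12 (adjusted p = 0.84). Edem3, which trims mannose from misfolded glycoproteins, read 10.36, 10.40 and 10.48 in db/db GEC, against 10.45, 10.32 and 10.27 in normal GEC, with overlap at 0.07 ± 0.09. The remaining 6 genes, Herpud1, Edem1, Edem2, Derl2, Derl3 and Os9, differed by -0.03 to 0.08 and overlapped.

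The SD over arrays was 0.09 in db/db and 0.22 in normal GEC for Hspa5, 0.03 in db/db and 0.25 in normal GEC for Creld2, and 0.08 in db/db and 0.35 in normal GEC for Hyou1. These genes were picked after their values were seen. The SD ran the other way for Canx (0.10 in db/db, 0.08 in normal GEC), Pdia3 (0.08 and 0.03) and Pdia4 (0.17 and 0.14). The share over all genes was not taken, and a difference in spread was not tested. Hspa5, Hsp90b1, Creld2, Hyou1, Vimp, Ddit3, Ppp1r15a and Nupr1 had normal replicates 1 and 2 above all db/db arrays and normal replicate 3 not, which is 8 of 52 genes (15.4%), against 6.21% of all genes. This pattern was noticed in the values and is given as a description. Averaged over the 14 chaperones, the deviation from each gene's mean was -0.03, -0.01 and -0.04 in the db/db arrays, against 0.11, 0.02 and -0.06 in the normal arrays. Normal replicate 1 was the highest array for 12 of the 52 genes, 6 of them chaperones, and db/db replicate 2 the highest for 11, 2 of them chaperones. Normal replicate 3 was the lowest for 15, 5 of them chaperones, and normal replicate 2 the lowest for 13, 4 of them chaperones. Without normal replicate 3, 11 of 52 genes had an unadjusted p under 0.05, against 7.17% of probesets, and 0 passed adjustment (smallest adjusted p = 0.58). These changes moved either way with the normal array left out. Hspa5 was at -0.28 without normal replicate 3 and at -0.07 without normal replicate 1, and Hyou1 at -0.42 and -0.10 in the same fits. Creld2 was at -0.36 without normal replicate 3 and at -0.13 without normal replicate 2, Ddit3 at -0.43 and -0.11, and Nupr1 at -1.24 and -0.57.

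**Figure D4:**
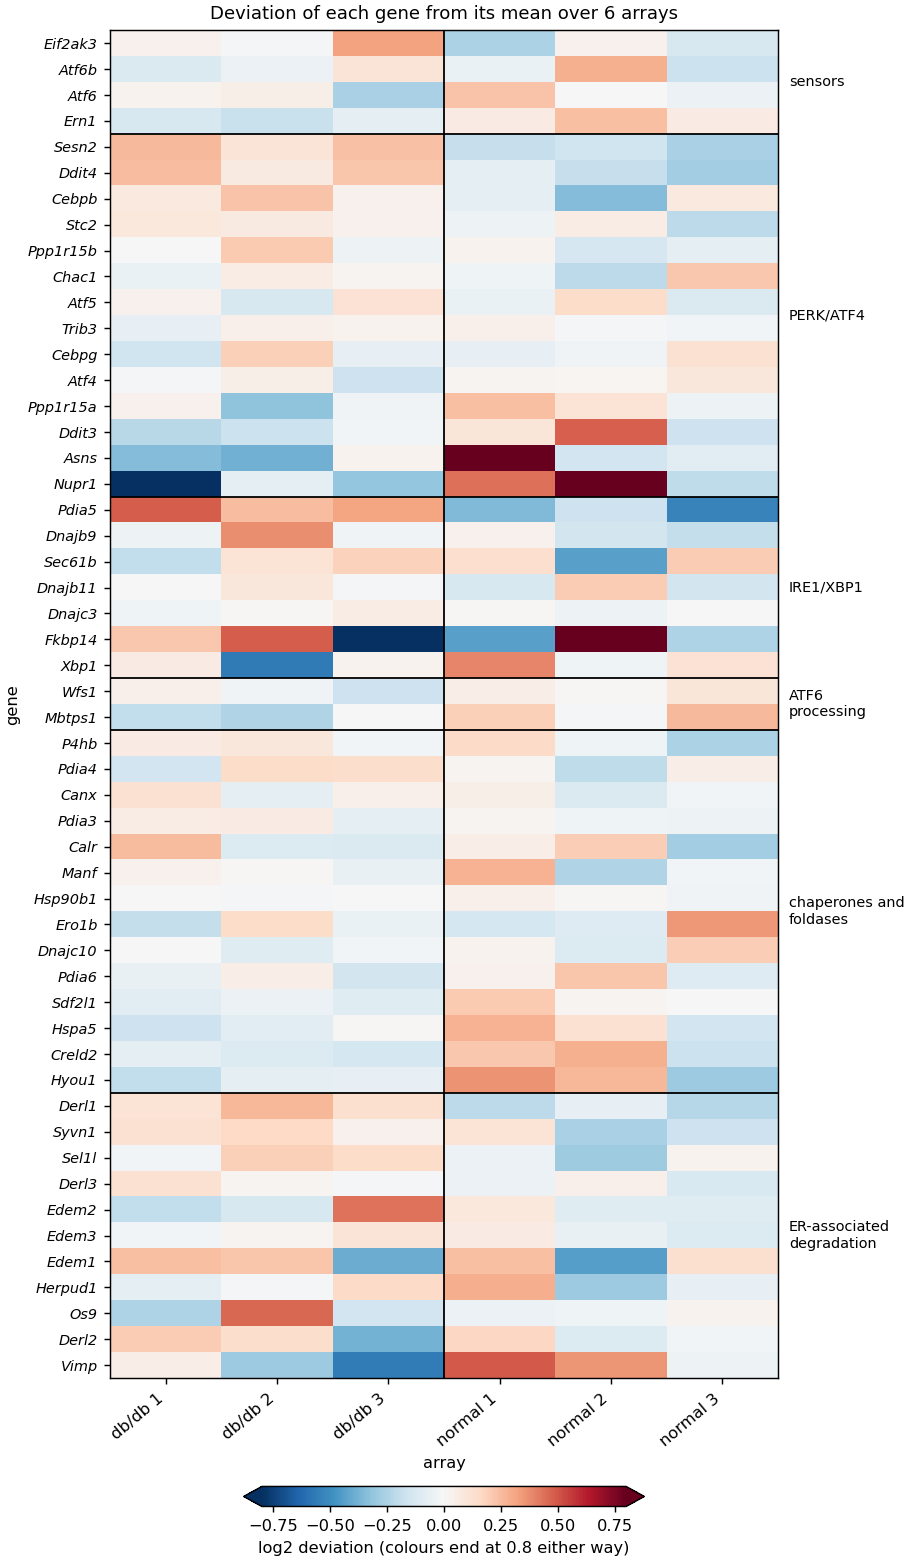
Log2 deviation of each measured gene from its mean over the 6 arrays (colour, red above and blue below the mean, colours ending at 0.8 either way), with the db/db arrays left of the line and the normal arrays right of it. Pdia5, Derl1, Sesn2 and Ddit4 are red in the db/db arrays and blue in the normal arrays, and Hspa5, Creld2 and Hyou1 are red in normal replicates 1 and 2 and blue in normal replicate 3.

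Neighbouring pathways of the secretory route and of stress were read from the same fit, where 0 genes passed adjustment. Of 15 other ER redox enzymes and isomerases past the level 4 had an unadjusted p under 0.05 (26.7%, against 6.57% of all genes in either direction). All 4 were higher in db/db GEC (3.49% of all genes were so), and the median change of the list was 0.20. These 4 were the prolyl isomerases Fkbp11 at 0.41 ± 0.11 and Fkbp7 at 0.36 ± 0.13 and the thioredoxin-fold proteins Tmx3 at 0.41 ± 0.12 and Erp44 at 0.27 ± 0.08, with adjusted p of 0.616, 0.754, 0.659 and 0.684. The db/db arrays were all above the normal arrays for 4 of the 15 genes (26.7%, against 7.39% of all genes). They were the same 4 that were named by their p, so this adds no separate support. Of 21 genes of the translocon, signal peptidase and oligosaccharyltransferase 1 was higher and 1 lower by unadjusted p (9.52%, against 6.57% of all genes), the translocon-associated subunits Ssr1 at 0.32 ± 0.09 and Ssr4 at -0.35 ± 0.12. Among 22 other genes of ERAD and N-glycan quality control 0 had such a p, and the median was 0.12, with Uggt1, the folding sensor of glycoproteins, at 0.22 ± 0.11 and the glucosidase subunit Prkcsh at 0.17 ± 0.10.

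The other lists had medians of -0.07 to -0.01, against 0.01 over all genes. ER-to-Golgi traffic had 20 genes with a median of -0.05, of which the COPII GTPase Sar1b was higher at 0.47 ± 0.13 by unadjusted p (5.0% of the list, against 6.57% of all genes), and the cargo receptor Tmed9 differed by 0.68 ± 0.39. The 12 genes of eIF2 kinases and initiation had a median of -0.07, and 0 had an unadjusted p under 0.05. The widest there were the eIF2B subunits Eif2b1 at 0.77 ± 0.35 and Eif2b2 at -0.33 ± 0.15. A further 19 ATF4 targets, mostly of amino acid supply and tRNA charging, had a median of -0.01. Among them Atf3, a stress-induced factor not counted in the PERK/ATF4 arm above, was higher at 0.58 ± 0.16. Shmt2, which makes glycine in mitochondria, was lower at -0.50 ± 0.18 (10.5% of the list with an unadjusted p under 0.05). The groups did not overlap for 4 of the 19 genes (21.1%, against 13.3% of all genes), 2 higher and 2 lower in db/db GEC, Atf3 and Shmt2 among them. The 17 cytosolic heat shock proteins had 13 lower and 4 higher means in db/db GEC, against 53.7% higher over all genes, and a median of -0.05. Hspa4l, at -0.71 ± 0.21, was the 1 gene there with an unadjusted p under 0.05 (5.88%). The small heat shock protein Hspb1 was at -0.57 ± 0.25. Of 14 immediate early genes Btg2 differed by -0.39 ± 0.14 and Egr2 by 0.21 ± 0.08 (14.3% with an unadjusted p under 0.05), with a median of -0.02.

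**Figure D5:**
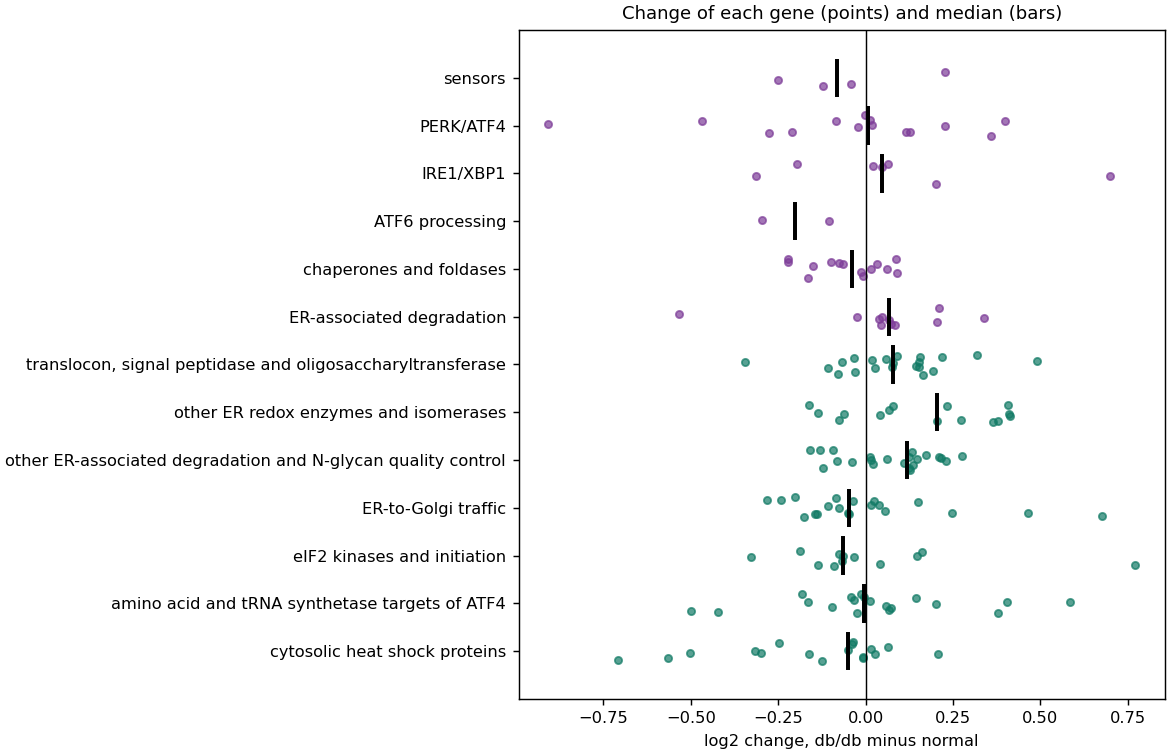
Log2 change (db/db minus normal) of each measured gene (points) and the median (bars) for the 6 UPR arms (purple) and 7 neighbouring pathways (green), with the immediate early genes not drawn. The medians lie between -0.20 for ATF6 processing, which has 2 genes, and 0.20 for the other ER redox enzymes and isomerases.

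Markers of other cells were read alongside, since plasma cells and other secretory cells are known to express ER genes at high levels. Of 4 plasma cell markers 2 were past the level, with array means of 8.30 to 8.48 in db/db and 8.22 to 8.46 in normal GEC, and the defining marker Jchain was not, at 4.81 to 5.11 in db/db and 4.92 to 5.03 in normal GEC. Of the 2 past the level, Mzb1 lay higher in each db/db array, at 6.95 to 7.02 in db/db and 6.71 to 6.87 in normal GEC, and Prdm1 overlapped. Of 6 leukocyte markers 2 were past the level, and their array means ran from 7.05 to 7.56 in db/db and from 6.83 to 7.16 in normal GEC. Cd68, a macrophage marker, differed by 0.76 ± 0.27, with all db/db arrays above the normal arrays. Cd3e, the other marker past the level, differed by -0.11 ± 0.16 with overlap. The pan-leukocyte marker Ptprc was below the level at 6.06 to 6.54 in db/db and 6.28 to 6.53 in normal GEC. Adgre1 was also below it, at 5.24 to 5.45 in db/db and 5.25 to 5.40 in normal GEC. Itgam was below it too, at 5.56 to 5.76 in db/db and 5.62 to 5.74 in normal GEC. Lyz2 did not reach the level of 6.64 in at least 3 arrays and so was not counted as past it. It read 6.61 to 7.41 in db/db and 6.19 to 6.63 in normal GEC. All its normal arrays were thus below the level, whereas its highest db/db array was above it, and the ranges overlapped. Globin probesets, each listing several genes, were lower in db/db GEC, with the alpha-globin probesets at 8.60 to 9.98 in db/db and 11.29 to 11.74 in normal GEC. Podocyte, mesangial, proximal tubule and distal nephron markers were past the level for 3 of 6, 1 of 5, 3 of 5 and 3 of 4 genes. Each of those measured had a higher mean in db/db GEC, by 0.03 to 0.31, against 53.7% of all genes. The groups did not overlap for Wt1 at 0.08 ± 0.07, Slc22a6 at 0.16 ± 0.09 and Umod at 0.31 ± 0.13, against 13.3% of all genes. Slc22a6 and Umod were below the level in all normal arrays, so that a higher reading in db/db was a condition of their being measured. The part of these cells in the changes of the UPR genes was not tested.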

How the data were processed

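The authors deposited log2 probeset signal for 6 arrays. RMA in GeneSpring is the normalisation that the study gives, whereas MAS5 is the name in the submitters' processing notes. The values, 3.18 to 14.46, were used as they stood. Of 35557 probesets 21789 had a single gene symbol, and 20661 reached 100 on the linear scale in at least 3 arrays, the level of the study's methods. Groups came from the sample labels. limma 3.58.1 (R 4.3.3, lmFit and eBayes, two-sided) compared db/db with normal, with Benjamini-Hochberg adjustment over the 20661 probesets and a threshold of 0.05. Errors beside changes are moderated SE and intervals are 95% moderated intervals. With 3 arrays a group an exact permutation p cannot fall below 0.1, so none was taken. The p-values measure the spread between these arrays, and their number limits the precision. The members and lists were chosen with earlier results of these data known.

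Values in every array were given for the main sensors and factors, genes with an unadjusted p under 0.05 and, per arm, the 2 genes with the widest change and the 2 with the highest mean. From each neighbouring list the 2 genes with the smallest p were named, and further names were added after their values were seen. Vimp was matched through its newer symbol Selenos, and Dnajc3 had 2 probesets with the same values. Promoters came from RefSeq (GRCm38.p6), and windows of 5 genes were not used here. Protein sequences were not analysed here. Alternatives were 1 probeset per gene, the mean of a gene's probesets, array weights, an intensity trend with and without a robust prior, a level of 200, no level filter, probesets with a gene listed, quantile normalisation, median centring, a replicate block, the methods' t-test and leaving out each array. Simulated arrays with 200 changed probesets were used to test the fit. Plots were made in Python 3.11.15 (matplotlib 3.10.9).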

Additional observations from a re-analysis of the deposited data

How the results depend on the processing

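Over 18 alternatives 0 of the UPR genes passed adjustment, with the smallest adjusted p among them between 0.272, with probesets that have a gene listed, and 0.862, without db/db replicate 3. Of all features 0 passed, except for 1 with 1 probeset per gene and 2 with the mean of a gene's probesets, neither of them a UPR gene. Between 5 and 8 UPR genes had an unadjusted p under 0.05 under the settings that kept all arrays, against 7 as reported, and between 3 and 11 when an array was left out. The median change was -0.02 to 0.02 when an array was left out. With a level of 200 the sensors had a median of 0.0525 and ATF6 processing of -0.30, from fewer genes. The median of the IRE1/XBP1 arm was 0.0240 to 0.162 when an array was left out. Sdf2l1 was not followed under the alternatives. Of 444 values of the 25 other genes given per array, 443 moved by less than the spread between arrays, and the other was Hsp90b1 at -0.05 with quantile normalisation. That count does not measure stability. Settings such as the replicate block and the methods' t-test leave a change as it was by design. Leaving out 1 of 3 arrays cannot move a change by as much as that spread. Near 0, 8 values in 4 genes changed sign. Sesn2 was not tested at a level of 200 or without a db/db array.

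The deviations of arrays with the same replicate number correlated at -0.00385, 0.0353 and -0.0296. No shared deviation by replicate number was seen, which cannot show whether the samples were collected or processed in pairs. With the replicate block 7 UPR genes had an unadjusted p under 0.05, with Nupr1 in place of Ern1, and 0 passed adjustment (smallest adjusted p = 0.689). With 3 arrays per group and adjustment over 20661 probesets, changes larger than the intervals given could also fail to pass. The alpha-globin probesets, at -2.07 and -2.05 in db/db GEC, did not pass in the main fit, where the smallest adjusted p of all probesets was 0.203. That 0 UPR genes passed thus does not show that they were unchanged.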
